A study of Mus musculus with 33 samples.

Results

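Interferon-gamma induced GTPases were followed across 33 lymphoid RNA-seq libraries from C57Bl/6 mice. The 10 genes were chosen by symbol: 5 immunity-related GTPases (IRGs), Irgm1, Irgm2, Igtp, Iigp1 and Tgtp1, and 5 guanylate-binding proteins (GBPs), Gbp2, Gbp3, Gbp5, Gbp7 and Gbp9. Each matched 1 of the 56414 rows of the table, and 10 of 10 passed the filter on low values, with at least 481 reads in every library. The mice bore no tumour and received nicotinamide (NAM, an amide of the B vitamin niacin) at 0.5% in their drinking water for 1, 3 or 14 d, and control mice received none. No transgene, deletion or other agent was labelled in any group. Libraries labelled spleen (S) numbered 5 per group, and libraries labelled lymph node (LN) numbered 3 untreated, 2 at 1 d, 4 at 3 d and 4 at 14 d. The labels do not say whether a library came from 1 mouse, nor whether an animal gave both organs, so the p-values measure the spread between libraries.

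Interferons switch on both GTPase families in macrophages, lymphocytes and stromal cells, where the proteins collect on membranes that enclose bacteria or parasites. IRGs fall into a regulatory class, to which Irgm1, Irgm2 and Igtp (also called Irgm3) belong, and an effector class, to which Iigp1 (Irga6) and Tgtp1 (Irgb6) belong. The regulators sit on the cell's own membranes and keep the effectors inactive there, while the effectors coat and disrupt the vacuole of the intruder. GBPs bind the same vacuoles and bacterial surfaces and promote inflammasome activation. Interferon-gamma acts through GAS elements and, by way of the induced factor IRF1, through IRF elements, and type I interferons act mainly through IRF elements.

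The promoters show how alike these genes are in the letters of those elements. RefSeq windows of GRCm38.p6 (mm10), from 250 bases before to 50 after the start site, existed for 8 of the 10 genes, and Gbp9 and Iigp1 had none. The letters GAAANNGAAA (IRF element, either strand, matches allowed to overlap) were found in 8 of the 8 genes (in 1 of the 2 windows of Gbp3), against 3.44% of 32851 windows of the same length. The letters TTCNNNGAA (GAS element, the same on both strands) were found in 5 of the 8, Gbp5, Gbp7, Tgtp1, Igtp and Irgm2, against 8.3% of windows. A letter match describes these windows and is not evidence of binding. In Igtp, Irgm2 and Tgtp1 the GAS match was followed after 2 bases by the IRF match, and the same arrangement was present in Tgtp2, a near-identical copy of Tgtp1. The arrangement did not hold for every other listed GTPase with a window that rose at 1 d: in Gm12250 6 bases lay between the matches, 9930111J21Rik1 had an IRF match alone, and Ifi47 had neither. The stretches are shown for the letters they share; capitals mark the matches, and each line reads 5′ to 3′ on the strand of the gene.
Igtp: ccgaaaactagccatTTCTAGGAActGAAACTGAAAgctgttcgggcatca
Irgm2: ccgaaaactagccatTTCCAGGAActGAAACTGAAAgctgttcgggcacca
Tgtp1: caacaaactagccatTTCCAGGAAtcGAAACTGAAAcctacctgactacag
Tgtp2: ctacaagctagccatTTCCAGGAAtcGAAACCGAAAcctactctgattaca
Irgm1, the other IRG with a window, had 2 overlapping IRF matches and no GAS match.
Irgm1: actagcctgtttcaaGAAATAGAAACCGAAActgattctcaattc
The GBPs of chromosome 3 held IRF matches in the opposite orientation, alone in Gbp2 and Gbp3 and with GAS matches farther upstream in Gbp7.
Gbp2: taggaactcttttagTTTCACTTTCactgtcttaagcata
Gbp3: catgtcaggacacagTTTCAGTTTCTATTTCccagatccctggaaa
Gbp7: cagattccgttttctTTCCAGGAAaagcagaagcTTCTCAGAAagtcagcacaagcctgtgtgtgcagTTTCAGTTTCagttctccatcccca
The stretches lie at chr11:58199496-58199546 (Igtp, plus strand), chr11:58214887-58214937 (Irgm2, plus), chr11:48992299-48992349 (Tgtp1, minus), chr11:49064258-49064308 (Tgtp2, minus), chr11:48871421-48871465 (Irgm1, minus), chr3:142620589-142620628 (Gbp2, plus), chr3:142559984-142560029 (Gbp3, plus) and chr3:142530215-142530307 (Gbp7, plus). In Gbp5 the nearest GAS and IRF matches were 71 bases apart.

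The genes lie in a few clusters. In the coordinates of the table (mm10), Gbp5, Gbp7, Gbp3 and Gbp2 lie in that order on chromosome 3 between 142493977 and 142638006, and Gbp9 on chromosome 5 between 105077631 and 105110292. On chromosome 11, Irgm1 spans 48861968 to 48871686, and Igtp and Irgm2 are neighbours between 58199555 and 58222782. Iigp1 lies on chromosome 18. The row of Tgtp1 spans 48904656 to 48992248 of chromosome 11, carries also the symbol Gm12185 and encloses the row of Psme2b and 9930111J21Rik1, from 48945354 to 48979381. Strand use in the counting was not stated, so reads may be shared between these overlapping rows and between the near-identical Tgtp1 and Tgtp2. The row of Ifi47 likewise encloses that of Tgtp2 and overlaps that of 9930111J21Rik2.

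Markers of the organs went against the labels in 33 of 33 libraries. The count of Glycam1, a mucin of lymph node venules, was 108167 to 214210 in libraries labelled S and 1.585 to 12.38 in libraries labelled LN, and Spic, a factor of splenic red pulp macrophages, was at 774.3 to 1295 and at 6117 to 10491. The splenic stromal gene Nkx2-5 was at 0 in all 20 libraries labelled S. Groups are therefore named below only by the letters of their labels. Depth was 18325061 to 54830743 reads per library under S, where the 3 d group, at 43632016 to 54830743, was the deepest, and 30424968 to 46733974 under LN. The labels were scaled separately by the authors, so levels are compared within a label.

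At 1 d under the S label, all 5 IRG members rose and 0 of the 5 GBP members passed the test. Rises of the IRGs were 1.39-fold to 1.64-fold, in regulators (Irgm1, Irgm2, Igtp) and effectors (Iigp1, Tgtp1) alike. Limma on log2(normalised count + 1), with Benjamini-Hochberg adjustment over all rows tested, called 5 of the 10 genes higher and 0 lower at an adjusted p under 0.05, where 8.56% of the 18243 rows tested were called higher. The median log2 fold change was 0.40 over the 10 genes and 0.01 over all rows. In these bulk samples, more transcript per cell and more cells that carry the transcript cannot be told apart.

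**Figure D1:**
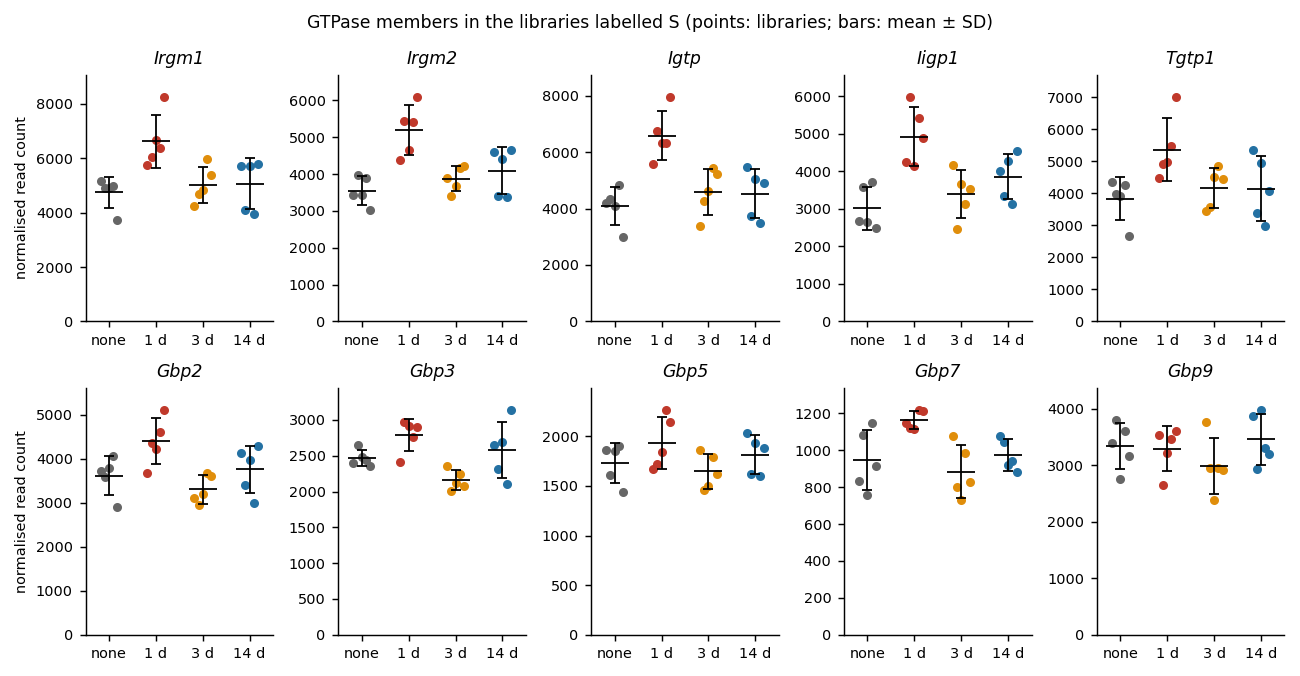
Normalised read count (y axis, from 0) of each GTPase in the libraries labelled S, by days of NAM in the drinking water (x axis, none for untreated). Points are libraries, 5 per group, and black lines are the mean ± SD. In the 5 panels of the upper row, the IRGs, every 1 d library lies above every untreated one, and in the lower row, the GBPs, the 1 d libraries overlap the untreated ones.

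Among the regulators, Igtp read 4204, 4337, 4089, 4844 and 2998 normalised counts in the untreated libraries and 5575, 6753, 6312, 6322 and 7951 at 1 d. Irgm2 read 3434, 3980, 3429, 3893 and 3035 untreated and 4392, 5454, 4657, 5407 and 6093 at 1 d. Irgm1, whose product also associates with mitochondria and lysosomes, read 5163, 4916, 4921, 4988 and 3726 untreated and 5763, 6053, 6662, 6368 and 8256 at 1 d. For each of the 3 genes, the groups did not overlap, the lowest untreated library was replicate 5 and the highest treated one was replicate 5. The limma log2 fold changes were 0.69 ± 0.15 for Igtp (SE, adjusted p = 0.00433), 0.55 ± 0.11 for Irgm2 (adjusted p = 0.00273) and 0.48 ± 0.13 for Irgm1 (adjusted p = 0.0158).

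Of the effectors, Iigp1 read 2663, 3568, 2635, 3712 and 2477 untreated and 4237, 5978, 4127, 5411 and 4874 at 1 d. Tgtp1 read 4372, 3981, 3933, 4250 and 2667 untreated and 4476, 4905, 4980, 5466 and 7013 at 1 d. Both sets were apart, for Tgtp1 by a narrow margin between 4372 and 4476. The log2 fold change was 0.72 ± 0.15 (SE) for Iigp1 with a limma adjusted p of 0.00356, and 0.49 ± 0.16 for Tgtp1 with an adjusted p of 0.0481. Every 1 d library lay above every untreated one for 5 of the 10 genes, against 6.42% of all rows. The call of Tgtp1 held in 7 of 11 alternative settings, with an adjusted p of up to 0.0777 by limma. It was lost in 8 of 10 fits that each left out 1 library, with its highest adjusted p, 0.135, without untreated replicate 5. Without that library, which was low for Irgm1 and Tgtp1, the other 4 IRGs were still called, with log2 fold changes of 0.39 for Irgm1, 0.49 for Irgm2, 0.58 for Igtp and 0.65 for Iigp1.

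No GBP member passed the limma test at 1 d, and 2 of 5, Gbp7 and Gbp2, had an unadjusted p under 0.05, as did 30.9% of all rows. edgeR and DESeq2 on the recovered reads also called 5 of the 10 genes, the same IRGs and no GBP, where edgeR called 8.64% of rows higher and DESeq2 9.69%. Gbp7, reported to help assemble the phagocyte oxidase, read 832.8, 1080, 756.3, 1146 and 915.5 untreated and 1147, 1122, 1117, 1217 and 1211 at 1 d. Gbp2, which is loaded on parasite vacuoles, read 3733, 3578, 3797, 4075 and 2900 untreated and 3677, 4371, 4234, 4616 and 5106 at 1 d. In both genes some 1 d libraries lay within the untreated range, 2 of 5 for Gbp7 and 1 of 5 for Gbp2. The log2 fold changes were 0.31 ± 0.11 for Gbp7 (SE, limma adjusted p = 0.0596) and 0.28 ± 0.11 for Gbp2 (adjusted p = 0.0806). Gbp3 stood at 0.17 ± 0.09 (adjusted p = 0.177), Gbp5, an inflammasome promoter, at 0.15 ± 0.10 (adjusted p = 0.328) and Gbp9 at -0.02 ± 0.12 (adjusted p = 0.925). Gbp7 passed in 1 of 11 alternative settings and in 2 of 10 fits with a library left out. The difference between the IRGs and the GBPs as groups was not tested.

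**Figure D2:**
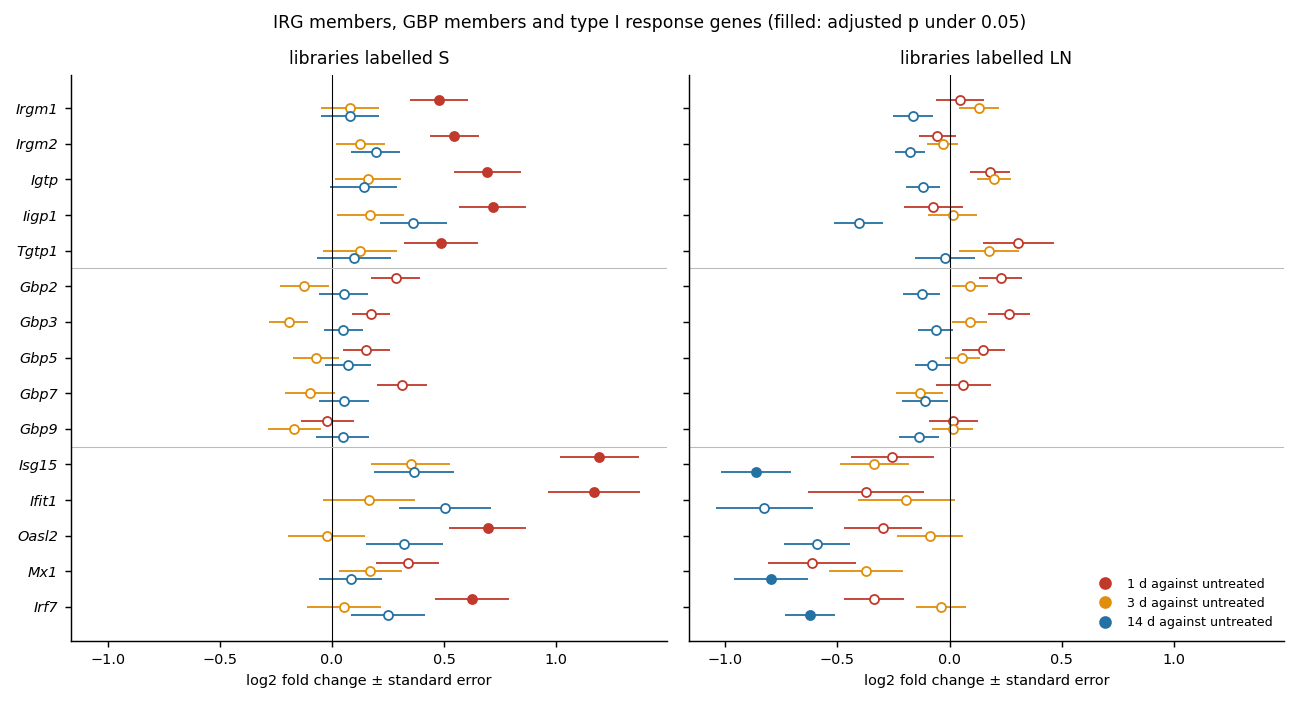
Limma log2 fold change against untreated (x axis, with its SE) of the IRG members, the GBP members and 5 type I response genes at 1, 3 and 14 d, for the S label (left) and the LN label (right). Filled points passed an adjusted p under 0.05: 5 IRGs and 4 of the 5 type I genes at 1 d under S, and Isg15, Mx1 and Irf7, all lower, at 14 d under LN.

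Type I response genes rose in the same 1 d comparison under S. Of 25 listed antiviral genes, 20 were called higher and 0 lower, with a median log2 fold change of 0.69 against 0.40 for the GTPases, and both lists are read against the same untreated libraries. Isg15, a ubiquitin-like modifier, read 469.2, 750.1, 554.6, 556.7 and 407.7 untreated and 1097, 1219, 1253, 1157 and 1434 at 1 d, with no overlap. Its log2 fold change was 1.19 ± 0.18 (SE, limma adjusted p = 0.000483), beside 0.72 for Iigp1, the largest value among the 10 GTPases. Ifit1, which binds foreign RNA, was at 1.17 ± 0.21 (adjusted p = 0.00129), Oasl2, of the oligoadenylate synthetase family, at 0.69 ± 0.17 (adjusted p = 0.0102), and Irf7, which amplifies type I interferon production, at 0.62 ± 0.16 (adjusted p = 0.014). Mx1, a dynamin-like GTPase, was at 0.34 ± 0.14 (adjusted p = 0.108) and did not pass. As means over their genes, the log2 difference from the untreated mean was 0.36 to 0.83 for the IRGs, 0.07 to 0.31 for the GBPs and 0.64 to 0.88 for the type I list in the 5 libraries at 1 d. The untreated libraries spanned -0.35 to 0.19, -0.15 to 0.14 and -0.22 to 0.44. IRG and type I values at 1 d thus lay above all untreated libraries, and the GBP values overlapped them.

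**Figure D3:**
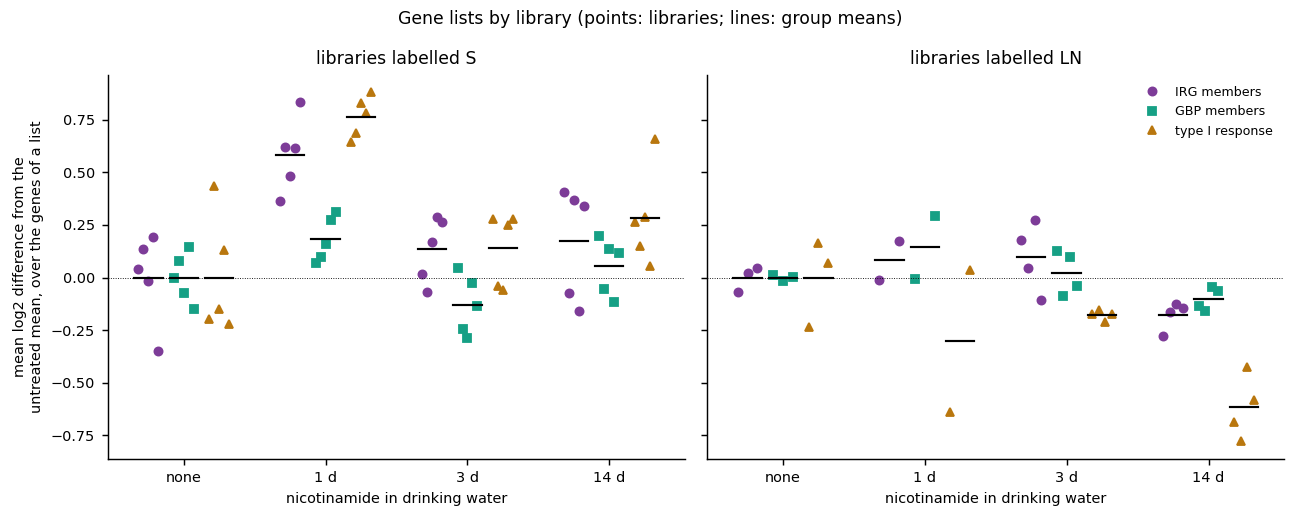
Mean log2 difference from the untreated mean of the same label (y axis) over the 5 IRG members, the 5 GBP members and the 25 type I response genes, for each library and group. At 1 d under S the type I means were 0.64 to 0.88 and the IRG means 0.36 to 0.83. At 14 d under LN the type I means were -0.78 to -0.43, and the IRG and GBP means lay between -0.28 and -0.05.

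Within interferon-gamma signalling, 2 of 11 listed genes were called higher at 1 d under S and 0 lower, Ifngr1 among them. Ifngr1, the ligand-binding chain of the interferon-gamma receptor, read 2454, 2429, 2798, 2282 and 2454 untreated and 3435, 3168, 3481, 3478 and 3705 at 1 d, and the groups were apart. It rose by 0.48 ± 0.08 (SE) on the log2 scale with a limma adjusted p of 0.000739. Ifng itself had few reads, at 12.39 to 41.41 normalised counts untreated and 28.91 to 62.44 at 1 d, and its log2 fold change of 0.57 ± 0.37 did not pass (adjusted p = 0.309). Ifngr2, the second receptor chain, was at -0.01 ± 0.08, Irf1 at 0.04 ± 0.11 and the feedback inhibitor Socs1 at -0.13 ± 0.13, with limma adjusted p-values of 0.93, 0.825 and 0.554. Among 18 other interferon-gamma targets tested, of 19 listed, 3 were higher: Cxcl10, a T cell chemokine, Psme2, a proteasome activator subunit, and Wars, a tRNA synthetase. The antigen presentation genes Psmb9 and Tap1 were at 0.25 ± 0.13 and 0.22 ± 0.10 (adjusted p = 0.176 and 0.139), Ciita at -0.20 ± 0.09 (adjusted p = 0.116), and Cxcl9 and Cd274 did not pass.

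Other listed GTPase genes (further GBPs, IRG-related genes, of which Irgc1 and Irgq are not known as interferon targets, and the very large GTPases Gvin1 and Gm4070) were read from the same fit at 1 d under S. Of 18, 10 were called higher and 0 lower. With the members counted, 8 of 9 genes outside the GBP family on chromosome 11 were called (rows of which some overlap, as given above), 3 of 4 on chromosome 18 and 1 of 4 on chromosome 7, and 0 of 5 GBPs on chromosome 3. On chromosome 5, 3 of 6 GBPs were called, none of them a member: Gbp6, Gbp10 and Gbp11. Gbp6 read 1467, 1877, 1272, 1823 and 1088 untreated and 2096, 2207, 2025, 2486 and 2545 at 1 d. Gbp10 read 152.4, 261.6, 120.1, 248.5 and 124.9 untreated and 411.9, 388.2, 328.4, 427.8 and 372.5 at 1 d. Both were apart between groups, with log2 fold changes of 0.62 ± 0.14 (limma adjusted p = 0.00521) and 1.16 ± 0.24 (adjusted p = 0.00326). Gbp11 had fewer reads, at 19.28 to 82.02 normalised counts untreated and 92.02 to 221.4 at 1 d, with a log2 fold change of 1.86 ± 0.47 (adjusted p = 0.0105). Outside the GBP family, Tgtp2 was at 0.71 ± 0.16 (adjusted p = 0.00562), Ifi47, whose row also carries Olfr56, at 0.79 ± 0.17 (adjusted p = 0.00391), and Gm12250 at 0.67 ± 0.15 (adjusted p = 0.00584). Gm4951, Gm4841, Gm4070 and 9930111J21Rik1, the last in a row shared with Psme2b, were at 0.82, 1.02, 0.51 and 0.47, with adjusted p-values from 0.000379 to 0.0163. Below 0 were 9930111J21Rik2, at -0.85 ± 0.30 (limma adjusted p = 0.0554, passing in 4 of 11 alternative settings), Irgc1, at -0.40 ± 0.16, and Gbp8, at -0.16 ± 0.09, and neither of the latter passed.

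**Figure D4:**
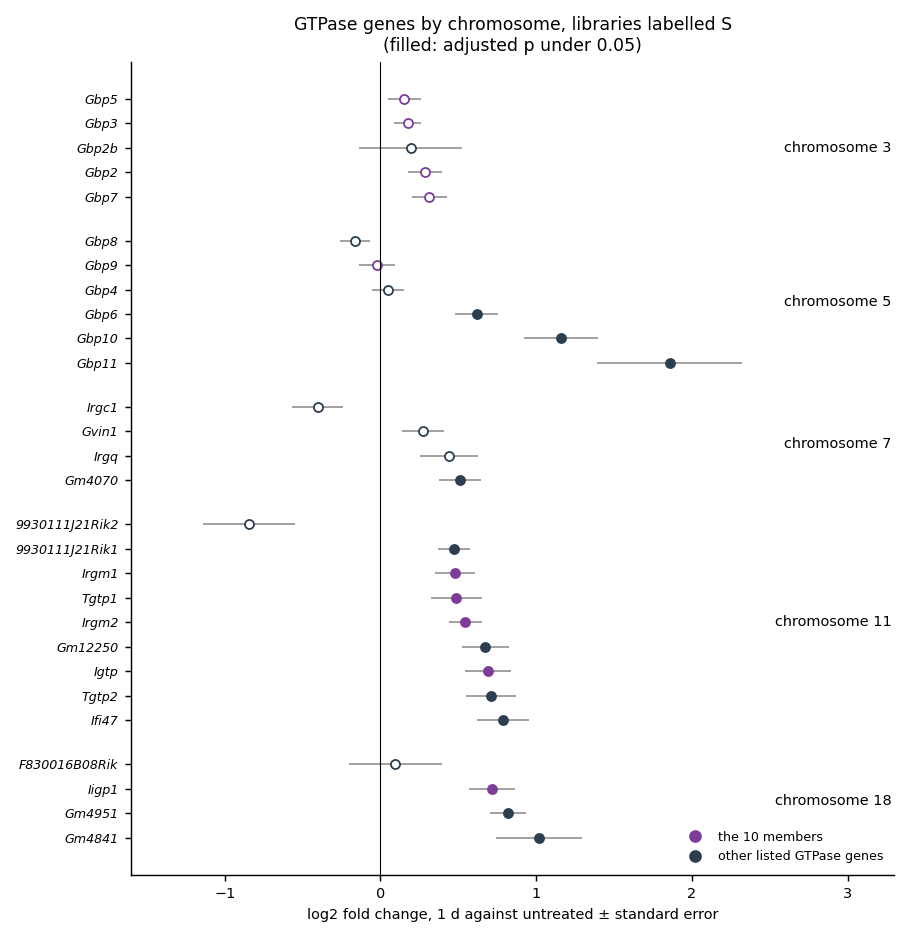
Limma log2 fold change at 1 d against untreated under the S label (x axis, with its SE) for the 10 GTPases and 18 other listed GTPase genes, grouped by chromosome. Filled points passed an adjusted p under 0.05: 0 of 5 on chromosome 3, 3 of 6 on chromosome 5, 1 of 4 on chromosome 7, 8 of 9 on chromosome 11 and 3 of 4 on chromosome 18.

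Several measures of the libraries moved with the 1 d group under S, and their part in these changes was not tested. All 5 libraries at 1 d and 4 of 5 at 3 d lay above 0 on the second principal component of the tested values, with 0 of 5 untreated and 0 of 5 at 14 d. The summed count of 6 adipocyte markers was 67758 to 294872 at 1 d and 19143 to 97470 untreated, and no marker lacked reads throughout either group. All 6 log2 fold changes were above 0 (median 1.07, from 0.86 to 1.61), with 2 at an unadjusted p under 0.05 and 1 called higher. Erythroid markers summed to 5918 to 25758 at 1 d and 2841 to 11996 untreated, with 5 of 5 tested genes above 0 (median log2 fold change 0.77), 2 at an unadjusted p under 0.05 and 0 called. Single genes of 3 further lists were called: Vcam1 of the red pulp macrophage list (0.64) and Xbp1 of the plasma cell list (0.33) were higher, and Madcam1 of the high endothelial venule list (-0.69) was lower. Among markers of cells that express these GTPases, 0 of 6 NK cell, 0 of 6 T cell and 0 of 6 dendritic cell genes passed, and 1 of 7 macrophage and monocyte genes and 2 of 6 B cell rows were lower. Summed macrophage and monocyte markers were at 97218 to 140008 at 1 d and 105995 to 150498 untreated, and NK cell markers at 2414 to 4342 and 2352 to 3513.

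At 3 d under S, 0 of the 10 GTPases passed against untreated by limma, edgeR or DESeq2, where limma called 5.55% of rows, and 1, Gbp3, had an unadjusted p under 0.05 (4007 of 18243 rows). The log2 fold changes ran from -0.19 for Gbp3 to 0.17 for Iigp1. Igtp read 3365, 4267, 4612, 5451 and 5232 and Irgm2 read 3891, 3409, 3687, 4159 and 4228, both overlapping the untreated libraries. Gbp3 read 2352, 2011, 2121, 2248 and 2079 against an untreated minimum of 2361, with an adjusted p of 0.194 by limma. The share of all rows so set apart at 3 d was not counted. Compared with 1 d directly, all 10 log2 fold changes were below 0, from -0.15 for Gbp9 to -0.55 for Iigp1. Of the 10, 9 had an unadjusted p under 0.05 (6.98% of rows) and 0 an adjusted one, in a limma comparison in which 0.00548% of rows (1 row) were called. DESeq2 called 1 of the 10 there, and 0.197% of rows, and edgeR 0. Against untreated, 0 of 25 type I genes passed at 3 d, with a median log2 fold change of 0.15, and against 1 d all 25 were below 0, with 22 at an unadjusted p under 0.05 and 0 called. Ifngr1 was the single signalling gene called higher than untreated at 3 d (log2 fold change 0.36 ± 0.08, limma adjusted p = 0.0133). Irf8, at -0.33 ± 0.10 (adjusted p = 0.0492), and Cd274, at -0.28 ± 0.08 (adjusted p = 0.0341), were lower, calls kept in 1 and 3 of 10 fits with a library left out. Of the markers, Vcam1 was higher at 3 d and Madcam1, Prdm1, Cd68, Clec9a and Xcr1 were lower, the last 2 being 2 of 6 dendritic cell genes, and their part was not tested.

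At 14 d under S, 0 of the 10 GTPases passed against untreated by limma, edgeR or DESeq2, and limma called 0.0% of rows. All 10 log2 fold changes were above 0, from 0.05 to 0.36, and Iigp1, at 0.36 ± 0.15, was the single gene with an unadjusted p under 0.05 (limma adjusted p = 1), where 2.8% of rows had one. The libraries at 14 d were spread in the IRGs: Igtp read 5471, 3730, 5052, 3504 and 4896, and Irgm1 read 5700, 4106, 5726, 3969 and 5807. Replicates 1, 3 and 5 lay above every untreated library in both genes, and replicates 2 and 4 within the untreated range. In replicate order the 5 depths were 32516461, 19880930, 20231598, 48338251 and 26979193 reads, and the mean log2 difference of the type I genes from untreated was 0.26, 0.15, 0.29, 0.05 and 0.66. The part of depth in these values was not tested. None of the 25 type I genes passed at 14 d, all 25 log2 fold changes were above 0, and 6 had an unadjusted p under 0.05.

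Between 1 and 14 d under S, 2 of the 10 genes were lower at 14 d, against 5.41% of rows called lower. Igtp fell by 0.55 on the log2 scale (SE 0.15, limma adjusted p = 0.0229) and Irgm2 fell by 0.35 (SE 0.11, adjusted p = 0.0436). All 5 Igtp values at 14 d lay below all those at 1 d, and for Irgm2 2 of 5 did. How many of all rows were set apart between these groups was not counted. Both calls were lost without 14 d replicate 2, without 14 d replicate 4 or without 1 d replicate 5. That of Irgm2 was also lost without 14 d replicate 3 or 1 d replicate 2 or 4 (adjusted p of 0.0533, 0.0789 and 0.0902), without the filter, with only the groups compared and with library weights, and the number of calls across fits with a library left out was 0 to 3. Irgm1 was at -0.40 ± 0.13 (adjusted p = 0.0536), and Gbp9 alone was above 0, at 0.07 ± 0.12. The fall of Irgm1 passed with DESeq2 (adjusted p = 0.0333). With limma it passed at a mean of at least 50 (0.0462), with trimmed-mean scaling (0.0467), with quantile normalisation (0.0418) and with library weights (0.0444). Ifngr1 was also lower at 14 d than at 1 d, at -0.47 ± 0.08 (limma adjusted p = 0.00192). Cell markers moved between the same groups: Slc40a1 and Vcam1, 2 of 5 of the red pulp macrophage list (median -0.57), were lower, Adgre1 and Ccr2 of 7 macrophage and monocyte genes were lower and Cd68 higher, and 2 of 6 B cell rows, both of Pax5, were higher. Red pulp macrophage markers summed to 4647 to 5725 at 14 d and 6025 to 7775 at 1 d, without overlap, and the part of these markers was not tested. In the type I list 9 of 25 were lower, with Isg15 at -0.83 ± 0.18 (limma adjusted p = 0.00682).

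Under the LN label, none of the 10 GTPases passed by limma at any duration. At 1 d, with 2 libraries, 0 of 10 were called where 1.21% of rows were, 2 had an unadjusted p under 0.05 (Gbp2 and Gbp3, beside 2726 of 18215 rows), and edgeR and DESeq2 called 0. The log2 fold changes ran from -0.07 for Iigp1 to 0.31 for Tgtp1. Both 1 d libraries lay above all 3 untreated ones for Gbp2, Gbp3, Igtp and Tgtp1, 4 of 10 genes, where 17.1% of all rows did so. Gbp3, the GBP with the smallest p, read 3205, 3165 and 3381 untreated and 3599 and 4235 at 1 d (log2 fold change 0.26 ± 0.09, limma adjusted p = 0.188). The summed pancreatic acinar markers reached 102960 in 1 of these 2 libraries and 1193 to 1268 in untreated ones. Summed macrophage and monocyte markers were at 208776 to 232384 at 1 d and 178935 to 184566 untreated, with 0 of 7 called, and the T cell, dendritic cell, plasma cell and endothelial sums were likewise above all untreated libraries with 0 called. The part of these markers in the GTPase values was not tested. Counts stayed at 0 called with either 1 d library left out, and Gbp7, Gbp9 and Irgm1 were below untreated without replicate 2, at -0.18, -0.19 and -0.10. Of the type I list 24 of 25 log2 fold changes were below 0 at 1 d, with a median of -0.31 and 0 called (7 at an unadjusted p under 0.05). This rested on replicate 1: the mean log2 difference of the list was -0.64 in that library and 0.03 in replicate 2, and without replicate 1 the median was 0.06 with 11 of 25 below 0.

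**Figure D5:**
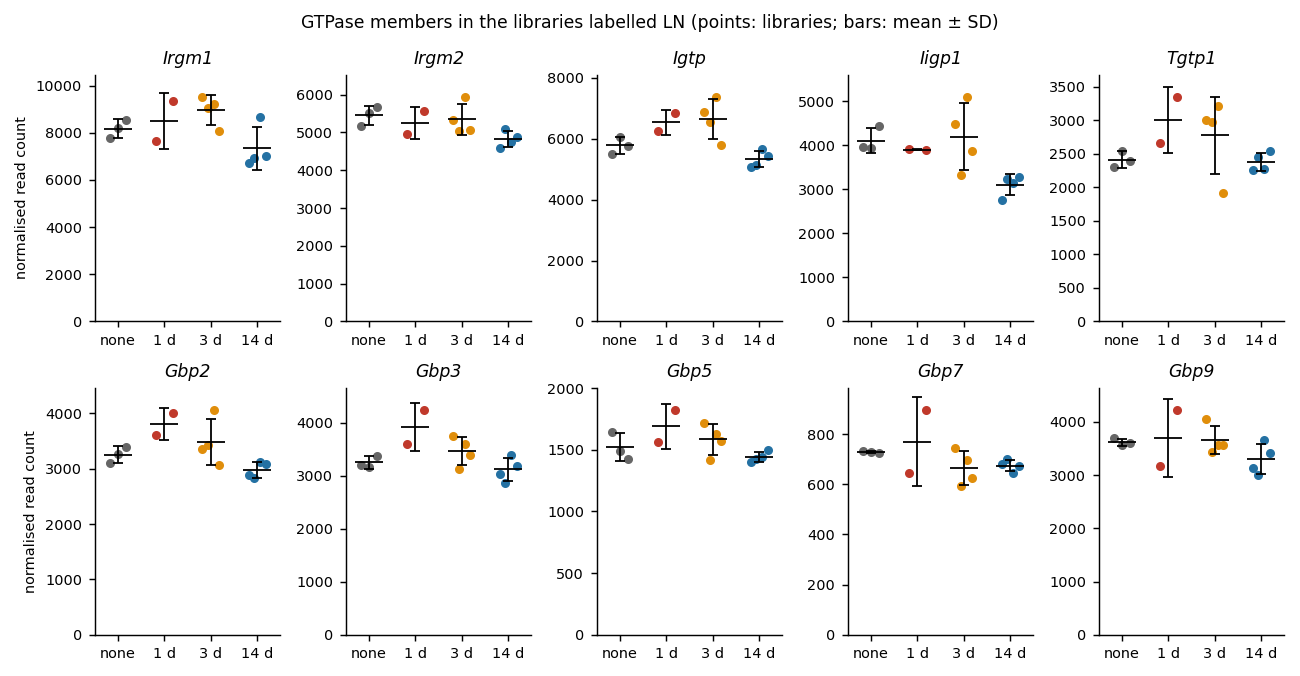
Normalised read count (y axis, from 0) of each GTPase in the libraries labelled LN, by days of NAM in the drinking water (x axis, none for untreated). Points are libraries (3 untreated, 2 at 1 d, 4 at 3 d and 4 at 14 d) and black lines are the mean ± SD. The 14 d libraries lie below all untreated ones for Irgm2, Iigp1 and Gbp7, and overlap them in the other panels.

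At 3 d under LN, 0 of 10 were called, where 1.24% of rows were, with Igtp the highest at 0.20 ± 0.07 (limma adjusted p = 0.224) and Gbp7 the lowest at -0.13 ± 0.10 (adjusted p = 0.581). Igtp alone of the 10 had an unadjusted p under 0.05 at 3 d (14.8% of rows), edgeR and DESeq2 called 0, and 1 of 25 type I genes, Rsad2, was lower. Erythroid markers also moved at 3 d, where 4 of 7 were lower and 7 of 7 had an unadjusted p under 0.05, with a median log2 fold change of -1.73 and sums of 320877 to 1387870 against 1449860 to 3058020 untreated. Macrophage and monocyte sums were 195459 to 223491 at 3 d, above the untreated 178935 to 184566, with 1 of 7 called higher, and the part of either list was not tested. At 14 d all 10 log2 fold changes were below 0, with a median of -0.12, and 0 were called by limma, which called 0.791% of rows and 0.681% lower. edgeR called 0 of the 10, and DESeq2 called 1, Iigp1, with 2.09% of rows. Iigp1 read 3950, 3936 and 4428 untreated and 2747, 3238, 3143 and 3281 at 14 d. Irgm2 read 5184, 5512 and 5671 untreated and 4598, 5081, 4741 and 4892 at 14 d. Gbp7 read 731.8, 727.8 and 723.8 untreated and 680, 701.5, 645 and 671.7 at 14 d. For these 3 of 10 genes every 14 d library lay below every untreated one, as for 6.02% of all rows. Log2 fold changes were -0.41 ± 0.11 for Iigp1 (limma adjusted p = 0.0992), -0.18 ± 0.07 for Irgm2 (adjusted p = 0.302) and -0.11 ± 0.10 for Gbp7 (adjusted p = 0.742), and 2 of the 10 genes, Iigp1 and Irgm2, had an unadjusted p under 0.05 (11.8% of rows). Directly against 3 d, 9 of 10 log2 fold changes were below 0 at 14 d and 0 were called, where 0.011% of rows were, with Igtp at -0.32 ± 0.07 (limma adjusted p = 0.173). In that comparison 6 of 10 had an unadjusted p under 0.05 (5.84% of rows), and DESeq2 called 2 (0.302% of rows) and edgeR 0.

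Type I genes were also below untreated at 14 d under LN. All 25 log2 fold changes were below 0 with an unadjusted p under 0.05, 8 were called lower, and the median log2 fold change was -0.56. With a library left out, 1 to 11 were called, with 1 without untreated replicate 2, 2 without untreated replicate 3 and 5 without 14 d replicate 1, 2 or 4, and all 25 stayed below 0. Isg15 read 2267, 3017 and 3356 untreated and 1357, 1291, 1878 and 1814 at 14 d, apart in all libraries, with a log2 fold change of -0.86 ± 0.15 (limma adjusted p = 0.0138). Irf7 was at -0.62 ± 0.11 (adjusted p = 0.0138) and Mx1 at -0.79 ± 0.17 (adjusted p = 0.0319). Ifit1 and Oasl2, at -0.83 ± 0.22 and -0.59 ± 0.15, did not pass (adjusted p = 0.0907 and 0.0724). Of the other GTPases 1 was called, Gbp10, which read 340.9, 324.2 and 303.9 untreated and 144.2, 170.2, 205.8 and 185.6 at 14 d. Its groups were apart, and its log2 fold change was -0.88 ± 0.19 (adjusted p = 0.036), a call kept in 1 of 7 fits with a library left out. Summed erythroid markers were at 792989 to 1185940 at 14 d and 1449860 to 3058020 untreated, with 1 of 7 called, Klf1, and 7 of 7 at an unadjusted p under 0.05. Red pulp macrophage markers summed to 43378 to 63160 at 14 d and 71694 to 82110 untreated, without overlap, with 1 of 5 called lower, Hmox1, and 3 of 5 at an unadjusted p under 0.05. The sums of the 7 macrophage and monocyte markers overlapped, at 183053 to 252587 at 14 d. The part of these markers in the values of the GTPases and the type I genes was not tested.

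The change of the 10 GTPases did not pass a test of difference between the labels at any duration. In a limma fit of all 33 libraries, the interaction was called for 0 of 10 at 1 d (1.55% of 18557 rows), 0 at 3 d (0.738%) and 0 at 14 d (0.124%), and edgeR called 0 at each. At 1 d the change under S minus the change under LN was 0.60 ± 0.17 for Irgm2 (adjusted p = 0.0554), 0.79 ± 0.24 for Iigp1 (adjusted p = 0.0821) and 0.51 ± 0.22 for Igtp (adjusted p = 0.236), and 4 of 10 genes had an unadjusted p under 0.05 (16.4% of rows). For the GBPs it lay between -0.09 and 0.25. An unadjusted p under 0.05 was reached by 1 of 10 at 3 d (12.7% of rows) and 2 of 10 at 14 d (4.99%). DESeq2 on the recovered reads called 2 of the 10 at 1 d (3.63% of rows) and 0 at 3 and 14 d. Of the type I genes 11 of 25 passed at 1 d, 0 at 3 d and 2 at 14 d, with Isg15 at 1.45 ± 0.30 (adjusted p = 0.013). Without LN replicate 1 at 1 d, 0 of the 25 passed at 1 d and Isg15 was at 1.14 (adjusted p = 0.132), and over all fits with a library left out 0 to 16 passed at 1 d and 0 to 8 at 14 d. Gbp10 was the single other GTPase to pass, at 1.501 ± 0.387 at 1 d (adjusted p = 0.0432) and 1.72 ± 0.35 at 14 d (adjusted p = 0.0296), and without LN replicate 1 at 1 d the former was 1.12 (adjusted p = 0.255). These calls of Gbp10 were lost in 9 of 15 fits with a library left out at 1 d and 11 of 17 at 14 d.

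Across libraries under S, pairs of IRGs had a higher median correlation than pairs of GBPs. Pearson correlations of log2 values over 20 libraries had a median of 0.89 (0.63 to 0.96) over the 10 pairs of IRGs, 0.52 (0.25 to 0.82) over the 10 pairs of GBPs and 0.61 over the 25 mixed pairs. Over the 13 libraries labelled LN the medians were 0.65, 0.63 and 0.56. These libraries share treatment groups and scaling, and the correlations are given as a description. Among the genes most like the mean of the 10 GTPases under S were Parp9 (r = 0.95), Gm12250 (0.94), Gbp6 (0.92) and Rtp4 (0.90) among 15517 rows with a symbol. Under LN they were Gbp6 (0.94), Tgtp2 (0.92), Gm12250 (0.89), Il15 (0.88) and Sybu (0.87) among 15318 rows. Gbp6 and Gm12250 were in both lists.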

How the data were processed

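Polyadenylated RNA of 33 libraries was sequenced with paired reads. The values that the authors deposited are normalised counts, a linear signal: the reads of each gene divided by the DESeq2 size factor of the library. The submitters' notes name STAR 2.4.0 and DESeq2, and the header names mm10. Groups and replicate numbers came from sample titles, and unmapped columns numbered 0. Values were whole multiples of 1 step per library, which gave back whole reads for 100% of values within a tolerance of 0.01. Recomputed size factors had ratios to the deposited ones of 0.9999 to 1.0001 under S and 0.962 to 0.972 under LN, so each label was tested alone.

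Log2(value + 1) was tested in R 4.3.3 by limma 3.58.1 with a mean-variance trend, all 4 groups of a label in 1 fit, a mean normalised count of at least 10, and Benjamini-Hochberg adjustment (two-sided, 0.05). Differences between the labels were interaction terms, whose p-values assume that the labels come from different animals. On this scale, fold changes of low genes are understated. The procedure was tested on simulated reads, in which 100 genes were changed 2-fold and 100 were changed 1.5-fold at 1 d. It recovered 67% and 47% of them under S and 59% and 30% under LN, with 5% and 6.32% of calls false. Changes of the size seen in the GTPases could thus be missed, and a gene not called is not shown to be unchanged. Alternatives used other pseudocounts, filters, scalings and group choices, library weights, a replicate block, each library left out, an unadjusted p of at most 0.05 with 1.5-fold, and edgeR 4.0.16 and DESeq2 1.42.0 on recovered reads. Replicate numbers of the groups gave no clear pairing of the libraries. Same-numbered deviations had a median correlation of 0.036 under S and -0.013 under LN, against -0.008 and 0.007 for different numbers. They correlated above 0.1 in 13 of 30 pairs under S and 0 of 16 under LN. Different-numbered pairs were not counted in this way, so pairing under S is not excluded.

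The GTPases and the lists were chosen with earlier results of these data known. All 10 members, and 5 type I, 6 signalling and 5 target genes, were named whatever their values, other GTPases where they passed, and per label the 5 most correlated rows. Of the genes so named, 1 is not reported here. Cxcl10, Psme2, Wars, Irf8, Rsad2, the called marker genes, the other GTPases below 0 at 1 d under S and the 1 d outlying libraries were named after their values were seen. Depth limits the precision of low rows such as Ifng and Gbp11.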

Additional observations from a re-analysis of the deposited data

Results flagged for a closer look

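Among 60 sets of 4 to 5 library values of the 10 GTPases, 3 held a library that stood apart from the rest by Dixon's test, where chance gives about 1 in 20. Under S, untreated replicate 5 was low in Irgm1, at 3726 normalised counts against 4916 to 5163 in the other 4 untreated libraries. The same library was low in Tgtp1, at 2667 against 3933 to 4372. Under LN, 14 d replicate 3 was high in Irgm1, at 8671 against 6732 to 7033 in the other 3 libraries of its group.

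Differences between the labels in the response to NAM passed the interaction test for 3 of the named genes outside the 10. The log2 change under S minus that under LN was 1.54 for Ifit1 and 1.45 for Isg15 at 1 d, and for Gbp10 it was 1.501 at 1 d and 1.72 at 14 d. The libraries labelled LN numbered 2 at 1 d, and without replicate 1 of these the 1 d differences were 0.91 for Ifit1, 1.14 for Isg15 and 1.12 for Gbp10, with limma adjusted p-values of 0.295, 0.132 and 0.255. Over all fits with a library left out the 1 d calls were lost in 5 of 15 for Ifit1, 1 of 15 for Isg15 and 9 of 15 for Gbp10. The 14 d difference of Gbp10 kept its size, at 1.59 to 1.87 with a library left out, and its call was lost in 11 of 17 such fits.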

How the results depend on the processing

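The number of the 10 GTPases called at 1 d under S, 5, was 4 to 6 in every setting and in fits with a library left out, except that it was 2 under the rule of unadjusted p with 1.5-fold, which drops smaller changes by construction. Within this count Tgtp1 passed in 7 of 11 alternative settings. Its limma adjusted p was 0.0777 without the filter, 0.0540 with quantile normalisation and 0.0532 with only the groups compared. At 14 against 1 d under S, 2 became 1 without the filter, 1 with the replicate block and 0 under the 1.5-fold rule, and 0 to 3 with a library left out. Calls were also gained there, by Irgm1 in the settings given above and by Gbp7 with only the groups compared (limma adjusted p = 0.047). Calls of 0 became 3 with library weights at 3 d under S (Gbp3, Gbp7 and Gbp9, lower, at -0.25, -0.28 and -0.30, with 25.9% of all rows called), 2 with library weights (0.143% of rows) and 1 with DESeq2 at 3 against 1 d, 1 with DESeq2 or with only the groups compared (1.09%) at 14 d under LN, and 2 with DESeq2 at 14 against 3 d under LN. For the difference between the labels, 0 became 1 with a mean of at least 50 (2.57% of rows) or quantile normalisation (2.05%) and 2 with DESeq2 or the 1.5-fold rule (6.81%) at 1 d (0 to 1 with a library left out), 1 with library weights at 3 d (10.1%) and 1 with the 1.5-fold rule at 14 d (2.83%). The cause was not tested. The replicate block, at numbers whose pairing under S was not settled, also brought Gbp7 at 1 d under S past the threshold (adjusted p = 0.0421) and took Tgtp1 and the 14 d change of Irgm2 out (0.0689 and 0.0642). No block was fitted across the labels.

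Among the refitted fold changes of the 10 GTPases, 34 had the opposite sign to the reported value, and 0 of these passed the test in either fit. With library weights the log2 fold change became -0.0071 for Iigp1 at 3 d, -0.044 for Gbp7 and -0.012 for Gbp9 at 14 d under S, and -0.0036 for Gbp9 at 3 d under LN. With quantile normalisation it became -0.037 for Gbp9 and -0.030 for Irgm1 at 1 d, and -0.017 for Gbp9 and -0.028 for Iigp1 at 3 d under LN, and with the replicate block 0.049 for Tgtp1 at 14 d under LN. With a library left out, ranges that crossed 0 under S were -0.087 to 0.056 (Gbp9, 1 d), -0.0024 to 0.14 (Irgm1, 3 d), -0.024 to 0.13 (Gbp2), -0.022 to 0.12 (Gbp3), -0.021 to 0.13 (Gbp7), -0.018 to 0.10 (Gbp9), -0.0022 to 0.16 (Irgm1) and -0.028 to 0.21 (Tgtp1) at 14 d, and -0.0078 to 0.13 (Gbp9, 14 against 1 d). Under LN they were -0.18 to 0.30 (Gbp7), -0.19 to 0.22 (Gbp9), -0.097 to 0.19 (Irgm1) and -0.14 to 0.028 (Irgm2) at 1 d, -0.036 to 0.042 (Gbp9) and -0.085 to 0.12 (Iigp1) at 3 d, and -0.054 to 0.019 (Tgtp1) at 14 d. A group of 2 libraries leaves 1 when a library is omitted, which the fit then assumes to vary like the other groups.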
